A study of Mus musculus with 6 samples.

Results

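The proteasome was described here through 42 genes for its subunits, activators, inhibitor and assembly factors, measured in RNA from mouse HACA cells on Agilent 2-colour arrays. Members were the gene names on the array made of Psm, a letter from a to g and a digit, each gene by its brightest probe. That rule took 43 of the 18501 names tested, on 45 of 19751 probes, and all 43 passed the filter on dim probes. Psmc3ip, a recombination factor and no proteasome subunit, was among them and is left out of every count (log2 ratio 0.067 in shSnail cells and -0.13 in shLoxl2 cells, both against shGFP, neither passing the test). The 42 genes were 8 alpha and 6 constitutive beta subunits of the 20S core, 3 immunoproteasome subunits, 6 ATPase and 14 non-ATPase genes of the 19S cap, 4 activators and the inhibitor Psmf1. Of the 14 non-ATPase genes 3, among them Psmd5, encode assembly chaperones and no part of the base or lid. They are counted with the cap throughout. Psmb6 and the Psmg assembly genes, which the rule did not take, are not analysed here.

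Cells carrying a short hairpin RNA against Snail (shSnail) or against Loxl2 (shLoxl2) were each hybridised together with a control line, whose hairpin is directed at GFP (shGFP). The shSnail RNA was in Cy5 on 2 arrays (replicates 1 and 2), and shLoxl2 RNA was on 4 arrays, replicates 1 and 2 in both dye orientations, so n = 2 in each silenced group. The shGFP RNA counted as 1 control sample, so tests against it leave out the control's own spread, and the 2 comparisons with shGFP share it. Separate cultures for the 2 replicates of a line are not stated in the labels, so their spread may be technical. The labels also do not say whether a line was 1 clone.

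The proteasome degrades proteins tagged with ubiquitin. Its barrel, the 20S core, has outer rings of alpha subunits that gate the channel and inner rings of beta subunits, some of which cut peptide bonds. The 19S cap binds the substrate, removes the ubiquitin and, with a ring of ATPases at its base, unfolds and feeds the chain into the core, while other activators open the core without ATP. In cells exposed to interferon, replacement beta subunits form the immunoproteasome, which favours peptides for MHC class I. Snail is a zinc-finger repressor known from epithelial-mesenchymal transition, and Loxl2 encodes a lysyl oxidase-like enzyme.

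Of the 43 names, 40 were well above background in all 12 channels, and Psma8, Psmb8 and Psmd11 were not. The Psmb1 probe was saturated in Cy5 on all 6 arrays and the Psma7 probe in 1 Cy5 channel. Over all tested probes the dye-swapped arrays of a replicate hardly correlated once their signs were turned (Pearson's r = 0.024 and -0.0297), whereas over the members r was 0.484 and 0.592, and the 2 shSnail arrays correlated at 0.911. The dye effect had an SD of 0.225 over the members and 0.463 over all tested probes, on the log2 scale. The probes of the targeted genes gave no check of the labels, since Loxl2 was above background in 7 of 12 channels and Snai1 in 2 of 12, and neither passed in the 3 comparisons. With no dye correction Loxl2 was called lower in shSnail cells (-0.83, adjusted p = 0.00544), but its dye-corrected value was 0.27. On the shLoxl2 arrays Loxl2 read 1.38 and 1.04 with shLoxl2 in Cy3 and -1.3 and -0.68 with it in Cy5, and averaged 0.11. Of the keratinocyte and epithelial markers, 9 of 9 were tested and 6, among them Krt5, Krt14 and Trp63, were above background in all 12 channels. Against shGFP, 1 of these 9 rose and 3 fell in shSnail cells, and 2 rose and 2 fell in shLoxl2 cells. Over all genes tested, 9.00% were called higher and 12.4% lower in shSnail cells, and 8.25% and 5.85% in shLoxl2 cells. Of 5 tested fibroblast markers 1 fell in each silenced line, and of 2 tested endothelial markers none changed in either (0 at an unadjusted p under 0.05 by limma). The part of these markers in the results was not tested.

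**Figure D1:**
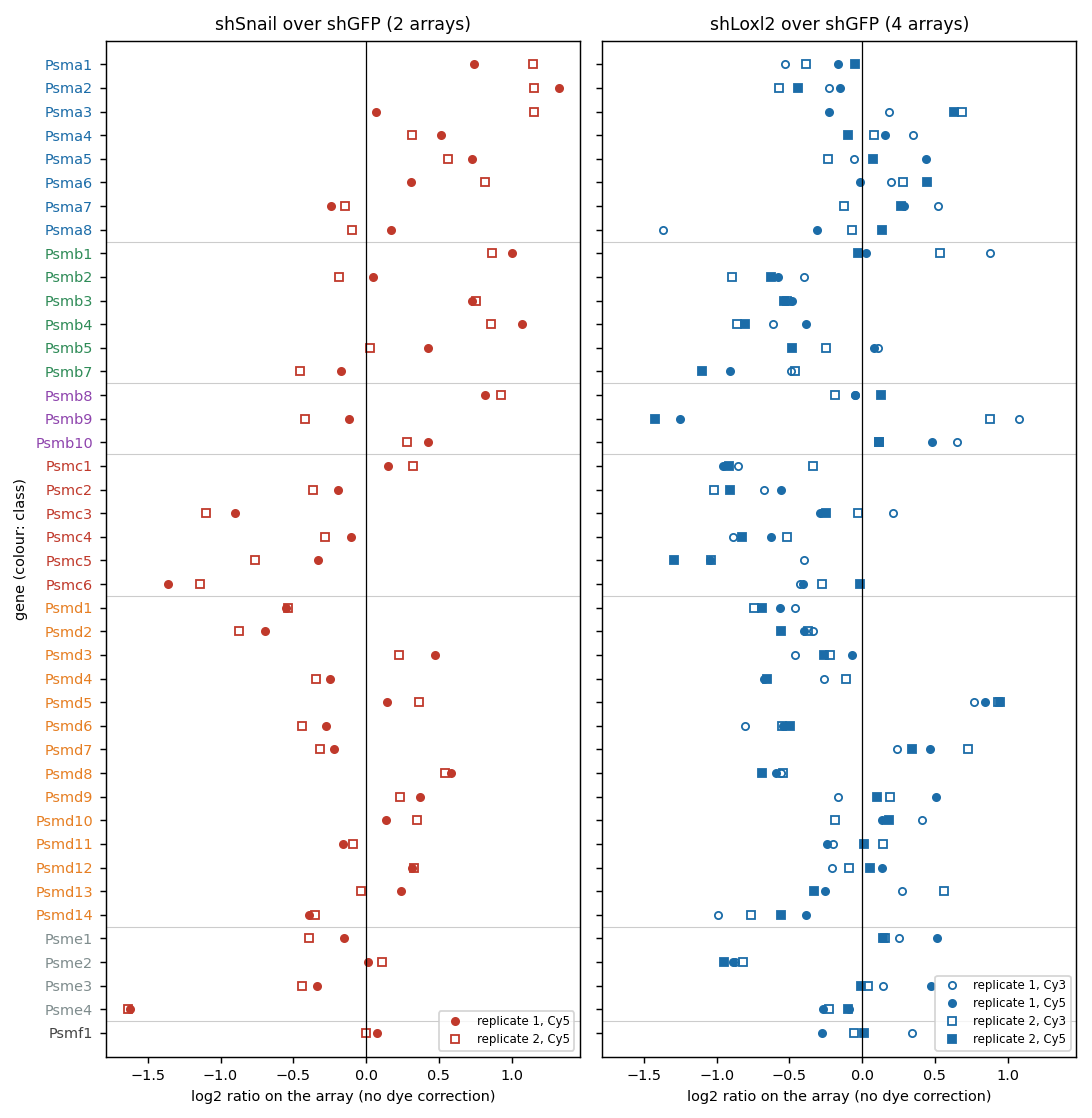
Log2 ratio of silenced over shGFP RNA on each array for the 42 genes, shSnail arrays on the left and shLoxl2 arrays on the right. Names are coloured by class (blue, 20S alpha; green, 20S beta; purple, immunoproteasome; red, 19S ATPase; orange, 19S non-ATPase; grey, activator; black, inhibitor). Psmb3, Psmb4 and Psmd8, among other members, lie above 0 on both shSnail arrays and below 0 on all 4 shLoxl2 arrays. The 2 orientations of Psmb9 lie on opposite sides of 0.

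In shSnail cells, 5 genes of the 20S core rose against shGFP cells, while 4 genes of the 19S base and the activator Psme4 fell. By limma with Benjamini-Hochberg adjustment over all tested probes at 0.05, 8 of the 42 genes rose and 6 fell. Over all genes tested, 9.00% were called higher and 12.4% lower. The core held 5 of the rises, among 14 alpha and constitutive beta genes, and none of those 14 fell (8 higher and 0 lower at an unadjusted p under 0.05). Of the 20 genes of the 19S cap, its 3 assembly chaperones included, 1 rose and 5 fell. The median log2 ratio was 0.54 in the core and -0.13 in the cap, against -0.036 over all genes. With median centring in place of loess 5 genes rose and 9 fell, the core's median was 0.19 and the cap's -0.50. That setting called far more of the array, 4656 of 19751 probes higher and 4040 lower. Psma1, Psmb3, Psmb4 and Psmd8 then stood at 0.44, 0.30, 0.59 and 0.21 and did not pass. With the scanner software's log ratios 7 rose and 4 fell (1008 and 3174 of 19751 probes). The dye correction comes wholly from the shLoxl2 arrays, scanned on other days, and takes the effect as equal on the shSnail arrays. Over all tested probes the slope of the shSnail ratios on that effect was 0.452, and its transfer was not tested. With no dye correction 9 genes rose and 6 fell (2562 and 3623 of 19751 probes). With that correction scaled by the slope the counts were also 9 and 6 (1732 and 2789 of 19751 probes). Without shSnail replicate 1, 3 genes rose and 3 fell, and without shSnail replicate 2, 4 rose and 2 fell. Without shLoxl2 replicate 1 or 2, whose arrays supply the dye correction, 5 and 6 genes rose and 3 and 2 fell. Psma2, Psmb1, Psmc6 and Psme4 passed in all 4 of these fits, whereas Psmd1, Psmd2, Psmd8 and Psmd14 passed in 0 of 4 (adjusted p from 0.0514 to 0.178).

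Among alpha subunits, Psma2 and Psma1 rose. The log2 ratio of Psma2 on the 2 shSnail arrays was 1.32 and 1.16. Its dye-corrected log2 ratio of shSnail over shGFP was 1.19 ± 0.16 (SE, n = 2), 2.27-fold (adjusted p = 0.0048). Psma1 read 0.74 and 1.15 and was 1.7-fold higher (adjusted p = 0.0245). Both genes form the ring through which substrates enter the core, and on both arrays both were above shGFP. Psma8, a form of the ring known from testis, was not well above background in shGFP RNA on either shSnail array and did not pass. Of the 8 alpha genes, 6 were above 0 on both shSnail arrays and 1 was below 0 on both. The same shares over all genes were not counted.

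Among constitutive beta subunits, Psmb1, Psmb3 and Psmb4 rose. These are structural members of the inner rings without a catalytic site. Psmb4 read 1.07 and 0.86 on the shSnail arrays, a dye-corrected log2 ratio of 0.90 ± 0.17 (adjusted p = 0.0137). Psmb3 read 0.73 and 0.76 and was 1.67-fold higher (adjusted p = 0.0106). Psmb1 passed the dye-corrected test (adjusted p = 0.00321). It was at least 1.91-fold higher before any dye correction, a lower bound because its shSnail channel was saturated. Such bounds were taken per channel without balanced dye swaps and are open to dye bias. The catalytic subunits measured did not pass. Psmb5, which carries the chymotrypsin-like activity, had a log2 ratio of 0.29 (95% interval -0.22 to 0.80), and Psmb7, which carries the trypsin-like activity, of -0.049 (-0.42 to 0.32). Psmb2, the lowest of the class at -0.091, did not pass either.

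The immunoproteasome genes Psmb8 and Psmb9 were called higher in shSnail cells, Psmb8 on dim signal and Psmb9 only with its dye effect removed in full. Psmb8 read 0.82 and 0.93 on the shSnail arrays, where it was well above background in shSnail RNA on 2 of 2 arrays and in shGFP RNA on 0 of 2. It was therefore at least 1.24-fold higher with background subtraction and before any dye correction. The dye-corrected test passed (adjusted p = 0.0107). With no background subtraction its dye-corrected log2 ratio was 0.28 (adjusted p = 0.028). Psmb9 read -0.12 and -0.42, below shGFP on both arrays, and was at 0.89 (adjusted p = 0.0118) after removal of its dye effect of -1.16, the largest among the members. With that effect scaled by the slope of 0.452 found over all probes on the shSnail arrays, Psmb9 was at 0.26, and with no correction at -0.27, neither passing the test. Psmb10 was at 0.40 (-0.041 to 0.84) and did not pass.

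Of the 19S ATPases, which ring the entrance of the core, Psmc6 and Psmc3 fell in shSnail cells. Psmc6 read -1.36 and -1.14 and was 2.5-fold lower (dye-corrected log2 ratio -1.32 ± 0.16, adjusted p = 0.00372). Psmc3 was 1.76-fold lower (adjusted p = 0.0116). The other members of the ring did not pass, and Psmc1 was the highest of the class at 0.41. The large scaffold proteins of the base, Psmd2 and Psmd1, also fell, Psmd2 to a log2 ratio of -0.72 (adjusted p = 0.0152) and Psmd1 to -0.53 (adjusted p = 0.0416). In the base as a whole, 4 of 9 genes fell and none rose (1 was higher at an unadjusted p under 0.05). On both shSnail arrays 8 of 9 lay below 0, and the same share over all genes was not counted. In the lid, 1 of 8 genes rose and 1 fell. They were Psmd8, a lid subunit, at 0.58 and 0.55 on the 2 arrays (adjusted p = 0.0201), and Psmd14, the enzyme of the lid that removes ubiquitin chains, at a dye-corrected -0.57 (adjusted p = 0.0315).

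By its brighter probe, the activator Psme4 had the lowest log2 ratio of the members in shSnail cells. Psme4, also called PA200, is a large nuclear protein that caps the core. It read -1.62 and -1.64 on the shSnail arrays and was 3.07-fold lower (dye-corrected log2 ratio -1.62 ± 0.14, adjusted p = 0.00148). A second, dimmer probe of Psme4 stood at 0.058 (adjusted p = 0.796), so the fall was seen by 1 of 2 probes. The brighter probe lies at chr11:30780168-30780227 in mm8, the build of the probe coordinates in the files. Of the PA28 activators, Psme1 was at -0.34, its partner Psme2 at 0.099 and the nuclear Psme3 at -0.46, none passing (adjusted p = 0.192, 0.64 and 0.0923). Psmf1, the inhibitor known as PI31, was at 0.18 (adjusted p = 0.483).

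**Figure D2:**
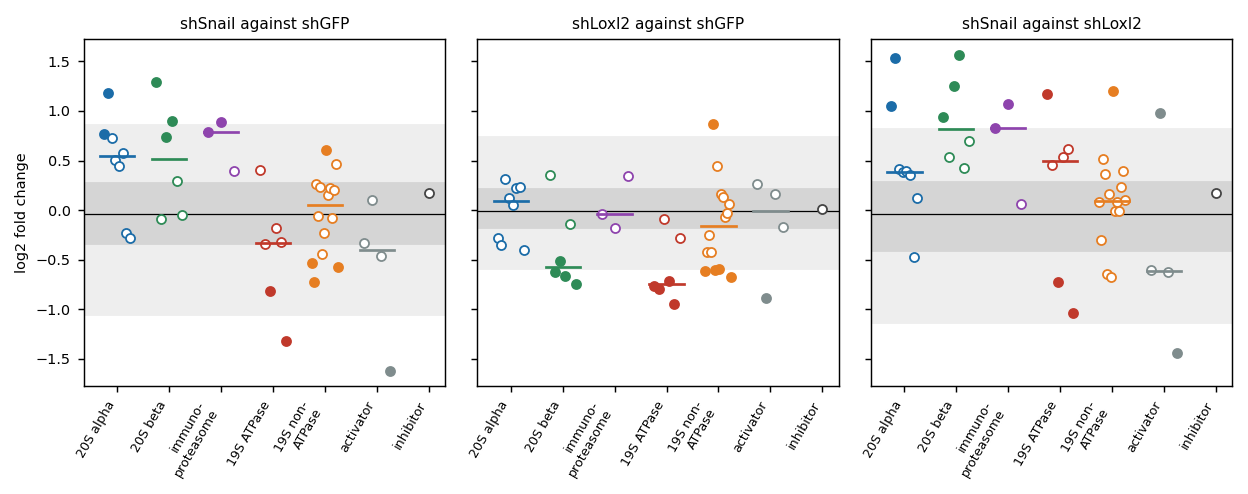
Log2 fold change of each of the 42 genes by class in shSnail against shGFP cells, shLoxl2 against shGFP cells and shSnail against shLoxl2 cells. Filled points passed the test, coloured bars are class medians, and the dark and light bands span the middle 50% and 90% of all genes tested around their median (black line). Psmb1 (saturated) and Psma8 and Psmb8 (dim) are drawn at fitted values that are not exact. In shSnail against shGFP the filled points of the core lie above 0 and those of the ATPases and Psme4 below it, whereas in shLoxl2 against shGFP all but 1 filled point (Psmd5) lie below 0.

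The promoters of 4 members called in shSnail cells, the rising Psma2 and Psmb3 and the falling Psmc6 and Psme4, are printed to show the letters around their starts. Each runs 5′ to 3′ on the gene's strand from 250 bases before to 50 bases after the start of the transcript (RefSeq, GRCm38.p6; all 4 on the plus strand). Capitals mark matches, on either strand, to TGACNNNGC, the core of the antioxidant response element bound by Nfe2l1 and Nfe2l2, to an interferon response element (GAAA, any 2 bases, GAAA) or to CCAAT, the NF-Y box.
Psma2 lies at chr13:14612992-14613291.
Psma2: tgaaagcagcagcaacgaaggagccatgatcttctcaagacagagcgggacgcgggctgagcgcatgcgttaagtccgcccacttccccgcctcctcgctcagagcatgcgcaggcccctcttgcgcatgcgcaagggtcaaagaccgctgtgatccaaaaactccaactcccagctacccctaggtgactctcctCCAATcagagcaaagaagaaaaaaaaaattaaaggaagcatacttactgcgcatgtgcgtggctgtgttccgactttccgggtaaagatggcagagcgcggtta
Psmb3 lies at chr11:97703184-97703483.
Psmb3: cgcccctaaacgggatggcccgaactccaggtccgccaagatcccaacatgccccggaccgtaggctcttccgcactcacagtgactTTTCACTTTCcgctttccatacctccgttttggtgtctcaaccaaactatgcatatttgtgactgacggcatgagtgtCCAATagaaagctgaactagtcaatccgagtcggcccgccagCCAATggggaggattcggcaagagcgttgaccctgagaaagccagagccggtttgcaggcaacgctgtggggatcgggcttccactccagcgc
Psmc6 lies at chr14:45329574-45329873.
Psmc6: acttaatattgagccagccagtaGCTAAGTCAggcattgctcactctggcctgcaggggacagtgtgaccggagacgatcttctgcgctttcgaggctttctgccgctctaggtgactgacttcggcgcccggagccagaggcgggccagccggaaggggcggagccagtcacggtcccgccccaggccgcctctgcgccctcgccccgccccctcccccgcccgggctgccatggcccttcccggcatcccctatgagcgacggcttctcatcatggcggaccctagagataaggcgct
Psme4 lies at chr11:30771525-30771824.
Psme4: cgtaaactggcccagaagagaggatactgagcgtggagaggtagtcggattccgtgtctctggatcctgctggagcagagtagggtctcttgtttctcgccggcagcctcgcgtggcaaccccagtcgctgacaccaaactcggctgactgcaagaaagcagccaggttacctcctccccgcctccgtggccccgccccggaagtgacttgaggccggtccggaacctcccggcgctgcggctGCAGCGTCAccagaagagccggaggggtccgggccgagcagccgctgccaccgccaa
Psma2 held 1 CCAAT box, whose first base was at position -54 from the start, and Psmb3 held 2, at -85 and -43, beside an interferon element on the other strand at -163. Psmc6 and Psme4 each held 1 antioxidant core on the other strand, at -227 and -7. A promoter was found for 35 of the 42 genes. The antioxidant core was in 5 of these 35 (14.3%, against 14% of 27025 genes), the interferon element in 4 (11.4%, against 3.99%) and CCAAT in 13 (37.1%, against 41.1%). CCAAT was in 6 of the 10 alpha and constitutive beta genes with a promoter and in 5 of the 17 cap genes. The 4 printed genes were picked and do not stand for all members called. The rising Psma1 held CCAAT, and so did the falling Psmd14, which held no antioxidant core. These matches describe letters only.

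In shLoxl2 cells the changes of the proteasome ran mostly downward, in the beta rings and in the base and lid of the 19S cap. Of the 42 genes 13 fell and 1 rose by the same test, while over all genes tested 8.25% were called higher and 5.85% lower. The 13 were 4 of the 6 constitutive beta genes, 4 of the 6 ATPases, 4 of the 14 non-ATPase genes and 1 of the 4 activators. Within the cap, 5 of the 9 base genes and 3 of the 8 lid genes fell. The median log2 ratio of the 42 was -0.18 and that of all genes -0.0088. None of the 8 alpha genes passed in either direction (0 higher and 1 lower at an unadjusted p under 0.05), and their median was 0.089. All 13 that fell were below 0 on all 4 arrays, in both dye orientations, which largely follows from the call. In all, 20 of the 42 genes were below 0 on all 4 arrays and 4 were above 0. The same shares over all genes were not counted. Without shLoxl2 replicate 1 or without replicate 2 the count of falls was 6 and of rises 1. No member passed with the scanner software's log ratios, in which 2 were higher and 15 lower at an unadjusted p under 0.05. Those ratios called 421 of 19751 probes higher and 355 lower. In the authors' deposited value table no member passed and these unadjusted counts were 1 and 11, but there no probe of any gene passed.

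The largest fall among the members was that of Psmc5, a 19S ATPase. Psmc5 read -0.40, -1.04, -1.04 and -1.29 on the 4 arrays (replicate 1 in Cy3 and Cy5, then replicate 2 in Cy3 and Cy5, the order kept below) and averaged -0.94 ± 0.17 (SE, n = 2), 1.92-fold lower (adjusted p = 0.019). Psmc2 averaged -0.79 (adjusted p = 0.0163), although a second, dimmer probe of it averaged 0.23 (adjusted p = 0.299). Psmc1 averaged -0.77 and Psmc4 -0.71 (adjusted p = 0.0151 and 0.0136). The 2 ATPases that did not pass were Psmc3, at -0.09, and Psmc6, at -0.28. All 9 base genes had a negative mean.

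Among beta subunits the catalytic Psmb7 fell most. It read -0.49, -0.91, -0.46 and -1.1 on the 4 arrays and averaged -0.74 ± 0.12, 1.67-fold lower (adjusted p = 0.015). Psmb4 read -0.61, -0.39, -0.86 and -0.80 (mean -0.66, adjusted p = 0.0277), Psmb2 averaged -0.62 (adjusted p = 0.0302) and Psmb3 read -0.52, -0.48, -0.52 and -0.54 (mean -0.52, adjusted p = 0.029). The 4 readings of Psmb3 lay within 0.1 of each other in both orientations, but Psmb3 passed in 0 of 4 fits that leave out 1 replicate (adjusted p from 0.0644 to 0.0803). Catalytic Psmb5 averaged -0.14 (95% interval -0.54 to 0.27) and did not pass, nor did Psmb1, for which saturation leaves no exact ratio. In the alpha ring Psma3 averaged 0.32, and stood at 0.66 without shLoxl2 replicate 1 and -0.021 without replicate 2. Psma8, well above background in shLoxl2 RNA on 2 of 4 arrays, read -1.37, -0.31, -0.072 and 0.14, and stood at 0.032 without replicate 1 and -0.84 without replicate 2.

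The only member called higher in shLoxl2 cells was Psmd5, a chaperone that holds ATPases during assembly of the base and is absent from the finished particle. Psmd5 read 0.77, 0.84, 0.93 and 0.95 on the 4 arrays and averaged 0.87 ± 0.12, 1.83-fold higher (adjusted p = 0.00876). Its probe lies at chr2:34674597-34674656 in mm8. The other non-ATPase genes that passed fell, namely Psmd14 to -0.67, the scaffold Psmd1 to -0.61, and the lid subunits Psmd8 and Psmd6 to -0.60 and -0.60 (adjusted p = 0.0131, 0.0213, 0.0193 and 0.0239). Psmd6 lay outside the rule for named genes and is named after its values were seen. Psmd14 and Psmd1 were also lower in shSnail cells, whose ratios share the shGFP RNA.

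Among activators Psme2 fell and its partner Psme1 did not pass. Psme2 encodes the beta chain of PA28, a ring that Psme1 and Psme2 form together and that interferon induces. Psme2 read -0.87, -0.89, -0.82 and -0.95 on the 4 arrays, averaged -0.88 ± 0.11 and was 1.84-fold lower (adjusted p = 0.00666). Psme1 averaged 0.27 (95% interval -0.043 to 0.58), Psme3 0.16 and Psme4 -0.17, none passing. The inhibitor Psmf1 averaged 0.0073. None of the 3 immunoproteasome genes passed (0 in either direction at an unadjusted p under 0.05). Psmb10 averaged 0.34, and Psmb8 was well above background in shLoxl2 RNA on 0 of 4 arrays. Psmb9 averaged -0.18 from readings of 1.08, -1.25, 0.88 and -1.42, above 0 with shLoxl2 in Cy3 and below 0 with shLoxl2 in Cy5.

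**Figure D3:**
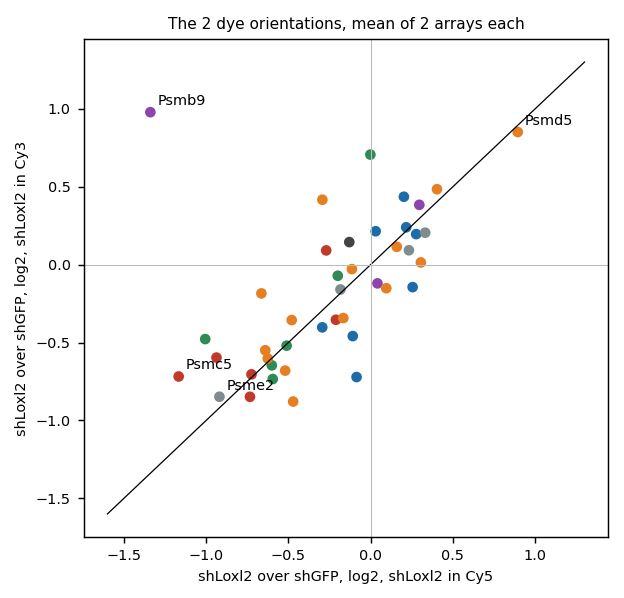
Mean log2 ratio of shLoxl2 over shGFP for each of the 42 genes with shLoxl2 in Cy5 (x axis) and in Cy3 (y axis), each the mean of 2 arrays. Colours are the classes of the per-array plot, and the line marks equal values. Psmd5, Psme2 and Psmc5 have the same sign in both orientations, and Psmb9 has opposite signs.

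The silenced lines were compared directly on the 4 arrays that carried silenced cells' RNA in Cy5, which asks where the 2 hairpins differed. In shSnail against shLoxl2, 10 of the 42 genes were higher and 3 were lower (4.34% and 8.51% of all genes tested), and the median difference was 0.38 on the log2 scale, against -0.039 over all genes. The core accounted for 5 of the higher genes, and in its constitutive beta class all 6 differences were positive. Both counts include Psmb1, whose Cy5 channel, the one compared, was saturated on all 6 arrays, so its difference is not exact. With median centring in place of loess 11 were higher and 8 lower, where 5013 of 19751 probes were called higher and 4355 lower. With the scanner software's log ratios 6 were higher and 1 lower (424 and 1928 of 19751 probes). Without shSnail replicate 1, and likewise without shSnail replicate 2, no gene passed. In those fits, which leave 1 shSnail array, 10 and 12 genes were higher and 4 and 3 lower at an unadjusted p under 0.05. Without shLoxl2 replicate 2, 10 genes were higher and 5 lower. The arrays of the 2 groups were scanned on different days and extracted with different protocol versions, per the file headers, so scan batch and group cannot be told apart in this comparison.

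Psmb4, Psmb3 and Psmd8 were called against shGFP in both lines, on opposite sides of it. Other members, among them Psma1, Psma2, Psmc1 and Psme2, also lay above 0 on both shSnail arrays and below 0 on all 4 shLoxl2 arrays. Those were not called in both lines. Psmb4 differed by 1.56 ± 0.21 (adjusted p = 0.019), from 1.07 and 0.86 on the shSnail arrays and -0.39 and -0.80 on the Cy5 shLoxl2 arrays. Psmb3 differed by 1.25 ± 0.15 (adjusted p = 0.0174), with the shSnail readings above 0.7 and the shLoxl2 readings below -0.4. Psmd8 differed by 1.2 ± 0.15 (adjusted p = 0.018), from 0.58 and 0.55 on the shSnail arrays and -0.59 and -0.69 on the Cy5 shLoxl2 arrays. In none of Psmb4, Psmb3 and Psmd8 did the 2 groups of arrays overlap, in either orientation, which follows from the opposite signs and adds no support. The share of all genes without overlap was not counted.

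The other members that passed were called against shGFP in 1 of the lines. Psma2 differed by 1.53 ± 0.18 and Psma1 by 1.05 ± 0.20 (adjusted p = 0.0174 and 0.0342), their shLoxl2 means of -0.35 and -0.28 not passing against shGFP. Psmc1 and Psme2, lower in shLoxl2 cells, differed by 1.17 and 0.98 (adjusted p = 0.0196 and 0.0239). Psme4 differed by -1.45 ± 0.16 (adjusted p = 0.0172), with readings of -1.62 and -1.64 on the shSnail arrays and -0.27 and -0.095 on the Cy5 shLoxl2 arrays, while its second probe differed by 0.072 (adjusted p = 0.78). Psmc6 and Psmc3 differed by -1.04 and -0.73 (adjusted p = 0.0367 and 0.0475). For Psmb1, saturated in Cy5 in both groups, the test passed but no fold is given. Psmb8 passed as higher in shSnail cells (adjusted p = 0.0362), at 1.39-fold by its channel signals, though not well above background in shLoxl2 RNA. With no background subtraction its log2 difference was 0.28 and did not pass. Psmb9 differed by 1.07 (adjusted p = 0.0284), a value that takes its dye effect of -1.16 as equal on both sets of arrays.

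Members that did not pass spanned differences of either sign. Catalytic Psmb7 and Psmb5 were 0.69 and 0.43 higher in shSnail cells (95% intervals 0.23 to 1.15 and -0.24 to 1.09). The lid gene Psmd7 and the chaperone Psmd5 stood at -0.67 and -0.64 (adjusted p = 0.0527 and 0.0655), and the activators Psme1 and Psme3 at -0.60 and -0.62 (adjusted p = 0.113 and 0.118). Psmb10 was at 0.059 and Psmf1 at 0.17. Psma7, saturated on 1 shLoxl2 array, did not pass.

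**Figure D4:**
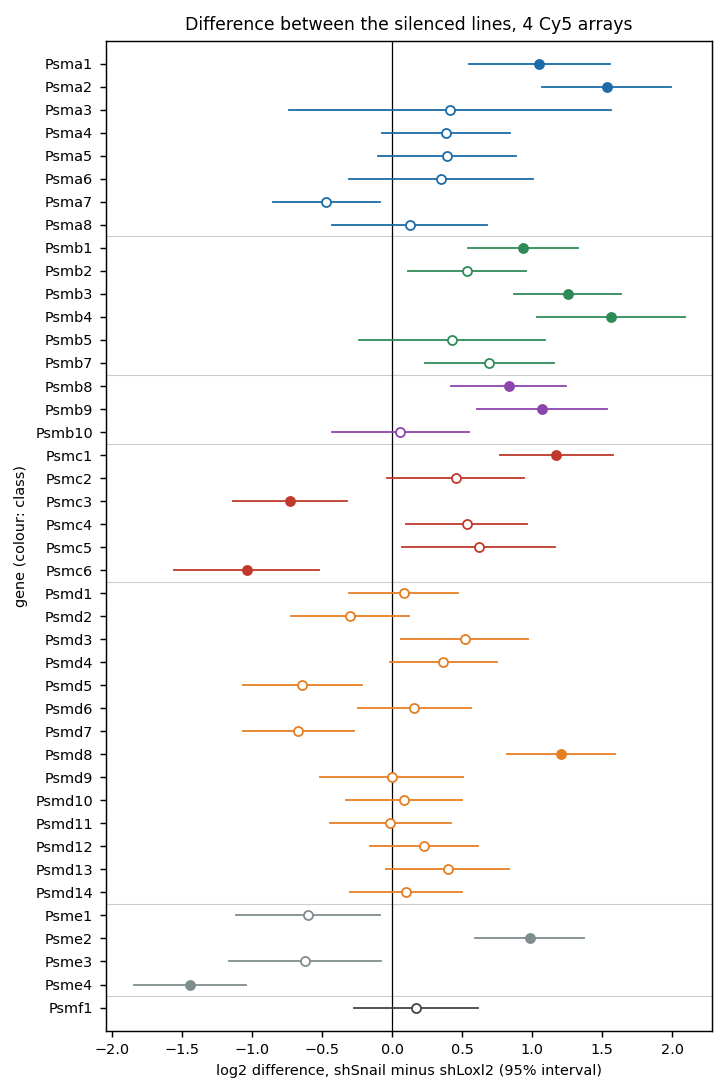
Difference in log2 ratio, shSnail minus shLoxl2, on the 4 Cy5 arrays for each of the 42 genes, with its 95% interval. Psmb1 and Psma7 (saturated) and Psma8 and Psmb8 (dim) are drawn at fitted values that are not exact. Filled points passed the test over all genes, and colours are the classes of the per-array plot. The filled points right of 0 are core genes, Psmb8, Psmb9, Psmc1, Psmd8 and Psme2, and those left of 0 are Psmc3, Psmc6 and Psme4.

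Among genes that build, control or feed the proteasome, Pomp rose and Nfe2l2 and Ddi2 fell in shSnail cells. Of 14 tested associated factors and regulators 3 rose and 3 fell, where 9.00% of all genes were called higher and 12.4% lower. Pomp, the chaperone that assembles the core, read 0.95 and 1.36 (dye-corrected 1.1, adjusted p = 0.00723). The small lid protein Sem1 and the cap-bound Txnl1, named after their values were seen, also rose, at 1.03 and 0.53 (adjusted p = 0.0274 and 0.0396). Nfe2l2, the transcription factor of the oxidative stress response, read -1.39 and -1.38 (dye-corrected -1.47, adjusted p = 0.00166). Ddi2, the protease that activates Nfe2l1 when proteasomes fail, was at -1.09, and Ecpas, which links core and cap, at -0.98 (adjusted p = 0.0038 and 0.0236). Of 12 tested genes for ubiquitin and its delivery 2 rose and 2 fell. Nsfl1c, a cofactor of the unfoldase Vcp, was at -1.30, and Rad23b, a shuttle that carries ubiquitinated proteins, at -0.87 (adjusted p = 0.00451 and 0.015). The shuttle Ubqln2 was called higher at 0.71 (adjusted p = 0.0224), but with no dye correction it stood at -0.17. Ufd1, another Vcp cofactor, rose at 0.69 (adjusted p = 0.0277).

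In shLoxl2 cells 1 of the 14 associated factors rose and 2 fell, where 8.25% of all genes were called higher and 5.85% lower. Pomp rose here too, at 0.62, 0.80, 0.61 and 0.65 on the 4 arrays (mean 0.67, adjusted p = 0.0283). Akirin2, which brings proteasomes into the nucleus, averaged -0.65, and Uchl5, a deubiquitinase bound to the cap, -0.51 (adjusted p = 0.0155 and 0.0434), while the deubiquitinase Usp14 at -0.52 did not pass. None of the 12 genes for ubiquitin and delivery passed (1 higher and 2 lower at an unadjusted p under 0.05), and their means ran from -0.43 for Nsfl1c to 0.51 for Bag6. Between the lines, Akirin2 was 1.08 higher in shSnail than in shLoxl2 cells, and Ddi2, Nfe2l2 and Nsfl1c were at -1.13, -1.11 and -0.87 (adjusted p = 0.0202, 0.0202, 0.0202 and 0.0387). Ufd1 was 0.75 higher (adjusted p = 0.0455).

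Genes that carry proteasome products to MHC class I were set beside the immunoproteasome. In shSnail cells none of 8 passed (0 in either direction at an unadjusted p under 0.05), with B2m at 0.78 and Tapbp at 0.44. In shLoxl2 cells 3 of 8 rose, against 8.25% of all genes, and none fell (0 lower at an unadjusted p under 0.05 by limma). Tapbp, the bridge between the peptide transporter and class I, read 0.83, 1.16, 1.49 and 1.42 and averaged 1.23 (adjusted p = 0.00768), and the transporter chains Tap2 and Tap1 averaged 0.79 and 0.45 (adjusted p = 0.0244 and 0.0499). Tap1 was well above background in 6 of 12 channels and passed in 0 of 4 fits that leave out 1 replicate. With no background subtraction Tap2 stood at 0.27 and Tap1 at 0.12, where Tap1 did not pass. B2m, the light chain of class I, read 1.77, 1.68, 0.14 and 0.67, averaged 1.07 and did not pass (adjusted p = 0.0701). Without replicate 1 it stood at 0.41 (adjusted p = 0.142) and without replicate 2 at 1.73 (adjusted p = 0.00788). Between the lines none of the 8 passed (0 higher and 3 lower in shSnail at an unadjusted p under 0.05 by limma). Of 8 tested leukocyte markers 4 were above background in all 12 channels, 1 rose in shLoxl2 cells (Cd68, 0.66) and none changed in shSnail cells (1 higher at an unadjusted p under 0.05), and their part in these results was not tested. In RNA of whole cultures, a change in the share of cells that express a gene and a change in RNA per cell cannot be told apart.

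**Figure D5:**
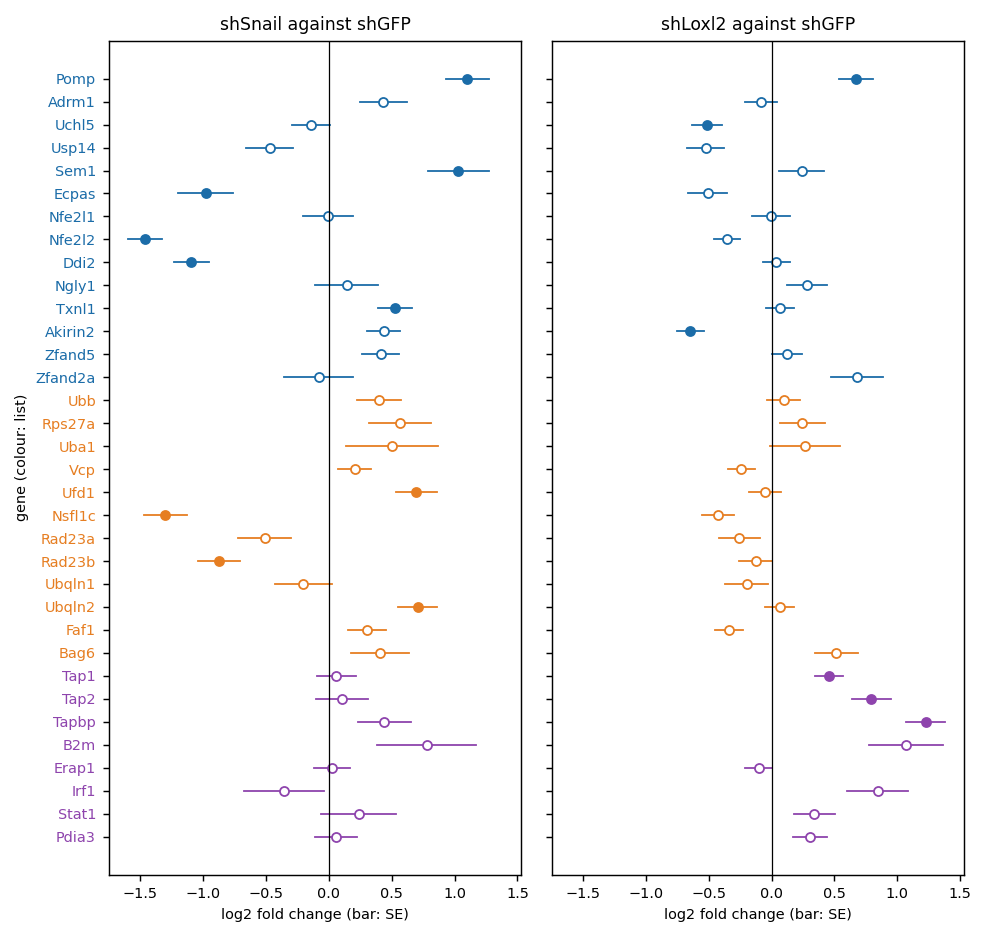
Log2 fold change with its standard error for the other genes of the pathway, in shSnail against shGFP cells on the left and shLoxl2 against shGFP cells on the right. Names are coloured by list (blue, associated factors and regulators; orange, ubiquitin and delivery; purple, antigen processing), and filled points passed the test. Pomp is filled and right of 0 in both panels, Nfe2l2 and Ddi2 are filled on the left, and Tap1, Tap2 and Tapbp on the right.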

How the data were processed

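The scanner files of 6 Agilent 2-colour arrays were read, with dye orientation from the labels. The spot intensity values were deposited as Feature Extraction wrote them (9.5.1.1 in the file headers, 6.1.1 in the labels), as were the log10 ratios, of which the authors' value table holds a rounded copy. In that table the column of shSnail replicate 2 matched its own array at 9.38% of spots and matched best with that of replicate 1, so it served as an alternative, holding 1 shSnail array. Its direction was Cy5 over Cy3, with no further centring, and its medians ran from 0.0371 to 0.098.

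Mean intensities were corrected with normexp (offset 50, local background) and normalized by loess in limma 3.58.1 (R 4.3.3, data.table version 1.17.8), with control and outlier spots at weight 0. A probe was tested where at least 2 arrays had a channel well above background, which left 19751 of 20868. Dye-swapped shLoxl2 arrays were averaged with the sign turned. For shSnail each probe's dye effect was taken from those swaps and removed. The 2 silenced lines were compared on the 4 Cy5 arrays. In the main fits the values of both lines shared the estimate of spread, also in each test against shGFP. Each SE is therefore pooled and moderated, and is not that of 2 values alone. All fits used lmFit and eBayes with Benjamini-Hochberg adjustment over all tested probes at 0.05, tested on simulated data. The number of arrays limits the precision.

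Members and lists were chosen with earlier results of these data known. Named were the catalytic, immunoproteasome and activator genes, up to 4 members of each class by smallest p, the highest and lowest of each class, and up to 4 genes of each other list. Some genes of the ubiquitin list are not reported here. Alternatives covered background, normalization, filter, probes, dye correction and replicates.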

Additional observations from a re-analysis of the deposited data

Results flagged for a closer look

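The members below differed between the silenced lines by the test of the difference itself (limma on the 4 Cy5 arrays, n = 2 in each group, adjusted p below 0.05, shSnail minus shLoxl2 on the log2 scale). The core genes were Psmb4 at 1.56, Psma2 at 1.53, Psmb3 at 1.25 and Psma1 at 1.05. Of the cap, Psmd8 was at 1.2, Psmc1 at 1.17, Psmc6 at -1.04 and Psmc3 at -0.73. Of the activators, Psme2 was at 0.98 and Psme4 at -1.45, where the second, dimmer probe of Psme4 stood at 0.072 (adjusted p = 0.78). Of the immunoproteasome genes, Psmb9 was at 1.07, with a dye effect of -1.16. Psmb8, not well above background in shLoxl2 RNA, was at 0.48 by its channel signals. With no background subtraction Psmb8 was at 0.28 and did not pass.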

How the results depend on the processing

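Against shGFP, the medians of the 20S genes, its beta genes, the 19S genes, its base and its ATPases, the sets recomputed, kept their sign under median centring and with the scanner software's log ratios. Between the lines, median centring turned the median of the 19S genes to -0.15 and of its base to -0.011. Median centring set the median of all genes at 0.098 in shSnail against shGFP and at 0.118 between the lines, and the scanner software's log ratios set both at -0.278. Psmb9 reversed, to 0.98 in shLoxl2 against shGFP with Cy3 alone and to -0.27 in shSnail against shGFP without dye correction, where Ubqln2 stood at -0.17.

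Counts of proteasome genes in shLoxl2 against shGFP were 3 higher with no background subtraction, 2 with the stricter filter, 2 with Cy5 alone, 3 with Cy3 alone and 2 with normexp on the software's fitted background, an alternative chosen after seeing the data. With the scanner software's log ratios they were 0 higher and 0 lower. In shSnail against shGFP median centring gave 5 higher, where 4656 of 19751 probes were called higher. In shSnail against shLoxl2 the lower genes numbered 5 with no background subtraction and 8 with median centring, which called 4355 of 19751 probes lower. They numbered 5 with the stricter filter and 5 with the fitted background. The scanner software's log ratios gave 6 higher and 1 lower. The authors' value table, with 1 shSnail array, gave 0 in all 3 comparisons and both directions (11 lower at an unadjusted p under 0.05 in shLoxl2, 7 higher and 3 lower in shSnail, 8 higher and 1 lower between the lines). With that table no probe of any gene passed in shLoxl2 against shGFP, so the absence of calls there is not particular to the members. The cause was not tested.

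Leaving out 1 replicate gave 1 to 1 higher and 6 to 12 lower genes in shLoxl2, 3 to 6 higher and 2 to 3 lower in shSnail, and 0 to 11 higher and 0 to 5 lower between the lines, where the lone sample is assumed to vary like the others. With the replicate number as a block, 10 genes were higher and 2 lower in shSnail against shLoxl2. Same-numbered samples deviated together at r = 0.205 over all probes and 0.718 over the members, but the labels give no shared batch and there are only 2 pairs. The alternative with a shared-array correlation could not be fitted and was not run.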
